A study of Homo sapiens with 10 samples.

Results

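Reference genes are transcripts that are assumed to stay at one level between samples, so that other transcripts can be divided by them. The 8 genes described here are GUSB, ACTB, HPRT1, TBP, YWHAZ, PPIA, POLR2A and SDHA, which are widely used in this way for qRT-PCR, and GUSB was the endogenous control for the mRNA assays of this study. They were found on the expression array as every probe, other than control probes, whose RefSeq accession pairs with one of the 8 symbols. The rule gave 17 of the 42405 probes and 8 of the 35267 genes or unnamed transcripts on the array, and it used no measured value. GUSB, HPRT1, TBP and POLR2A had 1 probe each, ACTB and YWHAZ had 2, SDHA had 4 and PPIA had 5. All 17 probes passed the filter on dim signal, so all 8 genes were among the 17379 genes tested.

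The arrays measured mRNA in MEG-01, a human megakaryoblastic leukemia cell line that stands in for megakaryocytes, the cells that shed platelets. Cells of both groups were nucleofected with 200 nM of a double-stranded precursor RNA and left for 24 hours. One group of 5 received the miR-1225-3p precursor and the other group of 5 received a scrambled negative control, and no untransfected cells were among the samples used. The 5 samples of each group are labelled as biological replicates, 1 array each, from a single cell line. One label describes the scrambled samples as having had no treatment, but their titles and the design text name a scrambled transfection, and that was followed.

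A microRNA pairs through its seed, bases 2 to 8, with mRNAs, which are then degraded or translated less. The transfected microRNA is shown because its seed is what distinguishes the treatment from the control. RefSeq places it on the minus strand at chr16:2090195-2090216 of GRCh38.p14, and capitals mark the seed.
hsa-miR-1225-3p: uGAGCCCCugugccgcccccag

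A reference gene is useful when neither the treatment nor the handling of the sample moves it relative to the rest of the RNA. The 8 genes serve several different tasks in the cell. GUSB encodes beta-glucuronidase, a lysosomal enzyme that cleaves glucuronic acid residues. HPRT1 recycles hypoxanthine and guanine into nucleotides, SDHA is the flavoprotein subunit of mitochondrial succinate dehydrogenase, and PPIA, cyclophilin A, helps proteins to fold. ACTB is cytoplasmic beta-actin, YWHAZ is the zeta member of the 14-3-3 adaptor proteins that bind phosphorylated partners, POLR2A is the largest subunit of RNA polymerase II, and TBP binds the TATA box in the general transcription factor TFIID.

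Array brightness came first, since it sets the scale for every value below. The median log2 signal over all spots ran from 3.67 to 5.33 on the miR-1225-3p arrays and from 4.09 to 5.89 on the scrambled arrays, a spread of 2.23 over the 10 arrays. The 7 spike-in probes that were bright on every array report RNA added at labelling, and their mean log2 signal spanned only 0.67, at 13.36 ± 0.27 and 13.41 ± 0.18 (SD, n = 5 each, exact permutation p = 0.754, two-sided). No spot was saturated. Of the 10 megakaryocyte markers, 6 were well above background on all 10 arrays, with PF4 on none and VWF on 1. Of 8 markers of other blood cells, 7 were on the array, of which 4 were well above background on all 10 arrays and 2 on none. CD14, NKG7 and HBB were among those above it on all, and MS4A1 of B cells among those above it on none. The arrays were on 2 slides, and each slide held both groups. In bulk RNA, fewer cells that carry a transcript and less of it per cell cannot be told apart.

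After cyclic loess normalization, in which the arrays are bent onto a common intensity curve, 2 of the 8 genes passed an adjusted p of 0.05. HPRT1 rose 1.53-fold and YWHAZ, by its brighter probe, fell 2.27-fold in the miR-1225-3p cells. Over all genes tested 35.0% passed, 17.0% higher and 18.1% lower, so the share among the reference genes was not above that of the array. For 5 of the 8, ACTB, TBP, PPIA, POLR2A and SDHA, the 95% interval of the fold change lay inside 1.5-fold in both directions, and this held for 17.2% of all genes. GUSB was in neither class. Tests are limma's moderated test with Benjamini-Hochberg adjustment over all genes, and differences are given as miR-1225-3p minus scrambled on the log2 scale.

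GUSB, the control used for the study's mRNA assays, read 11.89, 12.15, 12.19, 12.57 and 11.72 on miR-1225-3p replicates 1 to 5 and 11.20, 11.34, 11.79, 11.82 and 12.03 on scrambled replicates 1 to 5 (log2 processed signal after normalization). On 3 of the treated arrays it was above every scrambled array, and the groups overlapped through replicates 1 and 5. The difference was 0.47 (SE 0.212, 95% interval from -0.002 to 0.94, adjusted p = 0.103 from limma), or 1.38-fold. It was not past the threshold, but the interval reaches 1.92-fold, so a level within 1.5-fold was not shown either. Within the slides the difference was 0.36 and 0.57, and without miR-1225-3p replicate 5 it was 0.56 with an adjusted p of 0.0432 from limma.

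HPRT1 read 12.03, 12.04, 12.05, 12.12 and 11.66 in the miR-1225-3p group and 11.27, 11.34, 11.41, 11.17 and 11.66 in the scrambled group. On 4 of the treated arrays it lay between 12.03 and 12.12, and replicate 5 met the highest scrambled array, the 2 values differing only in the third decimal (11.662 and 11.657). The rise was 0.61 (SE 0.141, 95% interval from 0.30 to 0.92, adjusted p = 0.0162 from limma). The groups did not overlap (exact permutation p = 0.00794, two-sided, the smallest that 5 against 5 allows), as for 12.7% of all genes. Within the slides the difference was 0.60 and 0.68, with adjusted p of 0.0613 and 0.456 from limma.

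SDHA, by its brightest probe, read 12.79, 12.89, 12.94, 13.17 and 12.78 with miR-1225-3p and 12.53, 12.66, 12.68, 12.76 and 12.88 with the scrambled control. The difference was 0.21 (95% interval from -0.07 to 0.49, adjusted p = 0.199 from limma). Treated arrays held the 3 highest values, yet the groups overlapped, and the interval stayed within 1.41-fold. The exact permutation test of the same values gave an unadjusted p of 0.0317, so a small rise is not excluded.

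PPIA read 16.38, 16.24, 16.12, 16.24 and 16.49 with miR-1225-3p and 16.66, 16.49, 16.41, 16.40 and 16.34 with the scrambled control. It had the smallest spread of the 8 genes, an SD of 0.16 over the 10 arrays, and 4.09% of all genes had a lower one. The difference was -0.17 (95% interval from -0.44 to 0.11, adjusted p = 0.292 from limma).

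ACTB read 16.95, 16.86, 16.88, 16.61 and 16.90 with miR-1225-3p and 17.40, 17.19, 16.80, 16.84 and 16.76 with the scrambled control. The high values were scrambled replicates 1 and 2 and the other 8 arrays lay between 16.61 and 16.95. The difference was -0.16 (95% interval from -0.50 to 0.19, adjusted p = 0.435 from limma).

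POLR2A read 12.27, 12.52, 12.45, 12.68 and 12.09 with miR-1225-3p and 12.29, 12.41, 12.28, 12.40 and 12.08 with the scrambled control. The lowest array of each group nearly coincided. The difference was 0.11 (95% interval from -0.20 to 0.43, adjusted p = 0.542 from limma).

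TBP read 6.64, 5.98, 5.55, 5.64 and 6.17 with miR-1225-3p and 5.92, 6.29, 5.94, 6.19 and 5.65 with the scrambled control. Its group means were equal to the second decimal, with a difference of -0.0019 (95% interval from -0.49 to 0.49, adjusted p = 0.995 from limma). This probe is close to background, being well above it on 9 of the 10 arrays, and its spots on 1 array differed by an SD of 0.17.

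YWHAZ, by its brighter probe, read 12.15, 11.76, 11.42, 10.98 and 12.54 with miR-1225-3p and 13.30, 13.06, 12.96, 12.73 and 12.69 with the scrambled control. Every treated array was below every scrambled array, with replicate 5 of the treated group nearest to them. The difference was -1.18 (SE 0.277, 95% interval from -1.80 to -0.57, adjusted p = 0.0166 from limma, exact permutation p = 0.00794). Within the slides the difference was -1.04 and -1.25, with adjusted p of 0.0333 and 0.456 from limma.

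**Figure D1:**
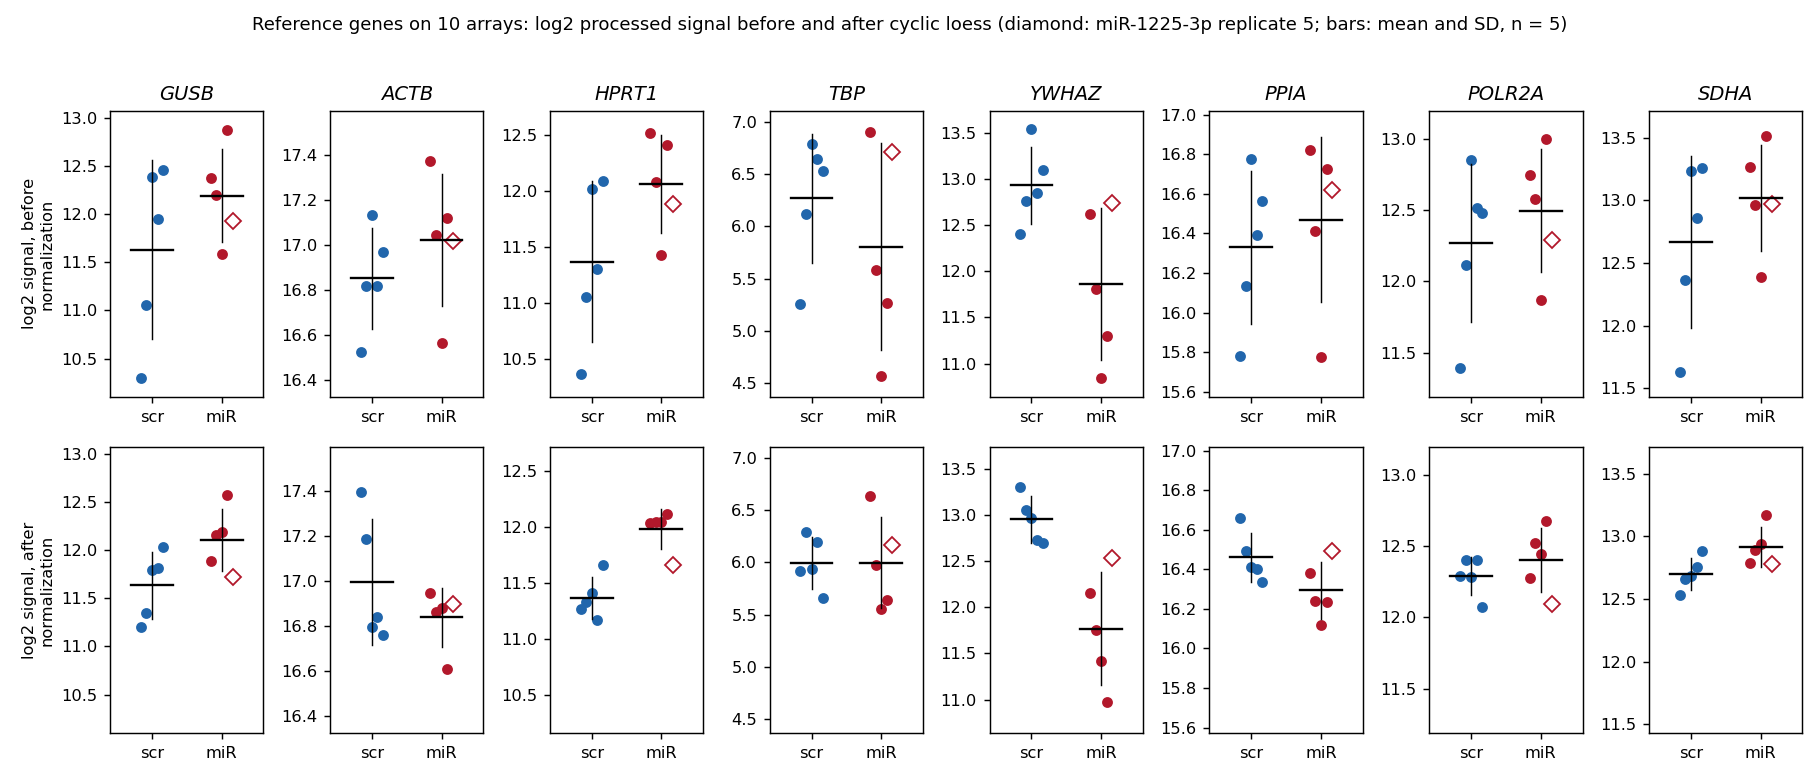
Log2 processed signal of the 8 reference genes on each array, before (top) and after (bottom) cyclic loess normalization, for the scrambled (scr, blue) and miR-1225-3p (miR, red) groups. The horizontal bar is the mean and the vertical bar the SD of 5 arrays, the open diamond is miR-1225-3p replicate 5, and each gene has its own axis. After normalization the groups do not overlap for HPRT1 and YWHAZ.

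Normalization narrowed the spread of all 8 genes. The median SD over the 10 arrays went from 0.62 to 0.28 for the 8 genes and from 0.69 to 0.48 for all genes. GUSB went from 0.76 to 0.40, HPRT1 from 0.67 to 0.37 and TBP from 0.81 to 0.34. YWHAZ hardly moved, from 0.83 to 0.76, and ACTB went from 0.26 to 0.22. After normalization the SD of YWHAZ was higher than that of 76.3% of all genes, and those of GUSB and HPRT1 were higher than those of 38.6% and 33.1%. For ACTB, POLR2A and SDHA the shares were 11.6%, 7.07% and 6.32%.

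Before normalization none of the 8 genes passed, against 7.28% of all genes, and none had groups that did not overlap, against 1.69%. At an unadjusted p of 0.05 only YWHAZ passed, at -1.07 (adjusted p = 0.124 from limma). GUSB ranged from 11.58 to 12.87 on the treated arrays and from 10.30 to 12.46 on the scrambled arrays. The differences were 0.56 for GUSB, 0.69 for HPRT1, 0.35 for SDHA, 0.23 for POLR2A, 0.17 for ACTB, 0.14 for PPIA and -0.46 for TBP. The median over the 8 genes was 0.20 while that over all genes was -0.26, and after normalization the medians were 0.06 and -0.06.

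The scaling decided the sign for ACTB, PPIA and TBP. ACTB and PPIA were lower by cyclic loess but higher unscaled, by quantile normalization (0.13 and 0.09), by subtraction of the 75th percentile (0.59 and 0.56) and against the spike-in probes (0.22 and 0.19). With the 75th percentile, 5 of the 8 genes passed against 41.1% of all genes, GUSB, HPRT1, SDHA and PPIA higher and YWHAZ lower, in a setting that put the median of all genes at 0.16. Against the spike-in probes none passed in limma, where 1.54% of all genes did and 2 of the 8, HPRT1 and YWHAZ, had an unadjusted p under 0.05, and the median of all genes was -0.21. On the spike-in scale GUSB was at 0.61 (95% interval from -0.17 to 1.396) and HPRT1 at 0.75 (from 0.10 to 1.39). ACTB was the only one of the 8 whose groups did not overlap against the spike-in probes (0.22, exact permutation p = 0.00794, adjusted p = 0.472 from limma), as for 5.63% of all genes. Among these scalings TBP was above 0 only by quantile normalization (0.15). HPRT1, GUSB, POLR2A and the brightest probe of SDHA were higher under all 5 scalings shown, and the brighter probe of YWHAZ lower.

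**Figure D2:**
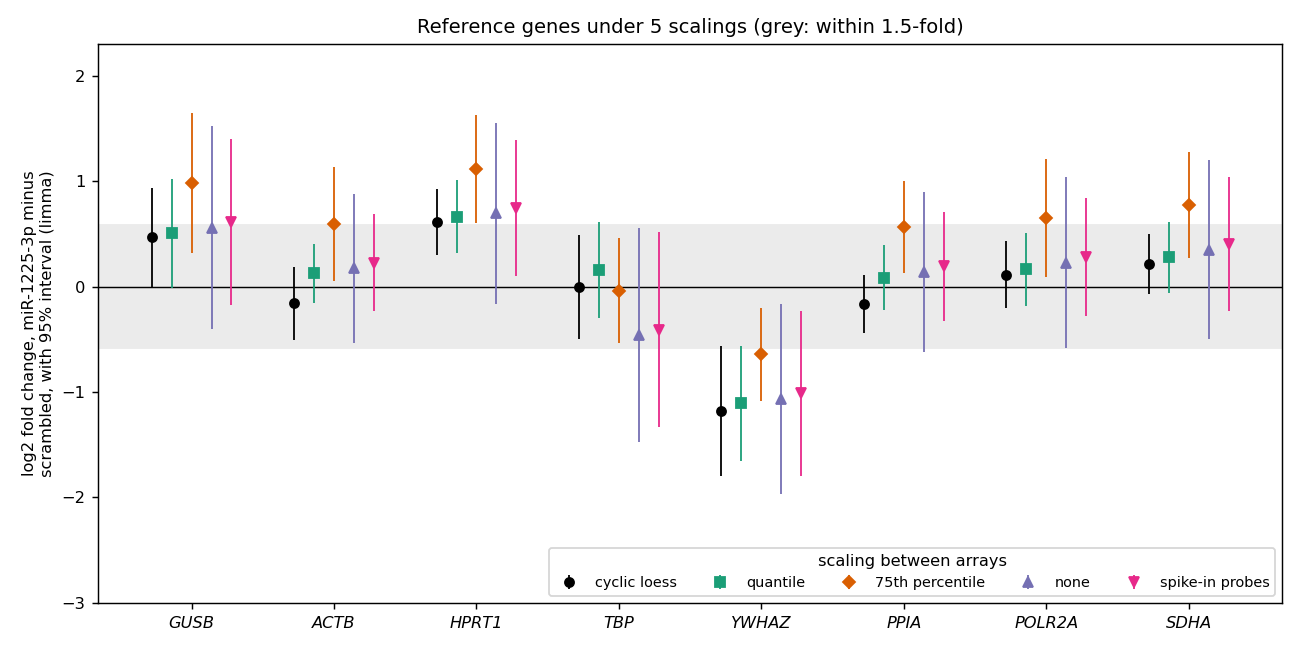
Log2 fold change of each reference gene (miR-1225-3p minus scrambled, vertical axis) with its 95% interval from limma under 5 ways of scaling the arrays, marked by colour and symbol. The grey band is within 1.5-fold. Points of HPRT1, GUSB, SDHA and POLR2A stay above 0 and those of YWHAZ below 0. ACTB and PPIA are below 0 by cyclic loess only.

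Of the 4 genes with more than 1 probe, SDHA and YWHAZ had the probes that differed most in fold change. Of the 17 probes, fitted together with all 20648 probes kept, 1 was past the threshold and higher (16.3% of all probes) and 5 were past it and lower (18.7%). These comprised the single HPRT1 probe on one side and, on the other, 1 probe of YWHAZ, 1 of PPIA and 3 of SDHA. Levels of different probes are not compared, since each probe has its own brightness.

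For SDHA, the interval of the brightest probe, A_33_P3311056, lay within 1.5-fold, while the other 3 probes were lower. Probe A_23_P250035 read 7.15, 6.52, 6.39, 6.05 and 9.81 with miR-1225-3p and 9.17, 8.97, 9.82, 9.51 and 10.04 with the scrambled control, a difference of -2.32 (SE 0.632, adjusted p = 0.0241 from limma). Probe A_32_P67259 read 9.42, 8.94, 8.90, 8.89 and 10.83 against 10.54, 10.47, 10.83, 10.79 and 11.03, a difference of -1.34 (adjusted p = 0.0223 from limma). Probe A_33_P3399492 was lower by a like amount, at -1.30 (adjusted p = 0.0227 from limma), with treated arrays from 7.55 to 9.501 and scrambled arrays from 9.17 to 9.66. In each of these 3 probes 4 treated arrays lay below all scrambled arrays, and replicate 5 of the treated group lay among the scrambled ones. The 4 SDHA probes spanned 2.53 log2 units of fold change, a wider range than in 96.0% of the 2501 named genes with more than 1 kept probe, whose median range was 0.69. That comparison was not matched for the number of probes, and a range tends to widen with more of them.

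For YWHAZ the probes pointed in opposite directions. Probe A_32_P226149 fell by 1.18 as given above, and probe A_32_P198923 read 11.72, 11.53, 11.58, 11.29 and 11.35 with miR-1225-3p and 10.38, 10.52, 11.03, 10.84 and 11.77 with the scrambled control. The second probe was 0.59 higher (95% interval from 0.04 to 1.13, adjusted p = 0.0835 from limma), with scrambled replicate 5 above all other arrays. The probes were 1.77 apart in fold change, a wider range than in 88.5% of genes with several probes. With the probes averaged, YWHAZ was at -0.30 (adjusted p = 0.21 from limma) and SDHA at -1.18 (adjusted p = 0.0254 from limma), so the pair of genes past the threshold became HPRT1 and SDHA.

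The probes of PPIA and those of ACTB lay closer together. The 2 brightest PPIA probes, A_24_P95038 and A_23_P258340, differed between the groups by -0.17 and -0.13. Probes A_24_P340679 and A_24_P246943 were at -0.49 (adjusted p = 0.075 from limma) and -0.58 (adjusted p = 0.0486 from limma), and the dim probe A_24_P920125, well above background on 8 of the 10 arrays, was at -0.81 (adjusted p = 0.0879 from limma). The second ACTB probe, A_23_P135769, was at -0.56 with treated arrays from 10.83 to 13.63 and scrambled arrays from 12.68 to 13.32, with a treated SD of 1.11 and a 95% interval from -1.58 to 0.46.

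Differences between probes of 1 gene were tested within arrays in 18 pairs of probes, by an exact permutation test of the log2 ratio. None passed after adjustment over the 18 pairs (lowest adjusted p = 0.0714) and in none were the groups without overlap, against 7.12% of such pairs over all genes with several kept probes. The largest shift, 2.87 between SDHA probes A_33_P3311056 and A_23_P250035, had a raw exact p of 0.0317, and the shift of 1.71 between the YWHAZ probes had 0.0159. Probes of one gene with calls in both directions occurred in 3.56% of the genes with several kept probes and in none of the 4 here.

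**Figure D3:**
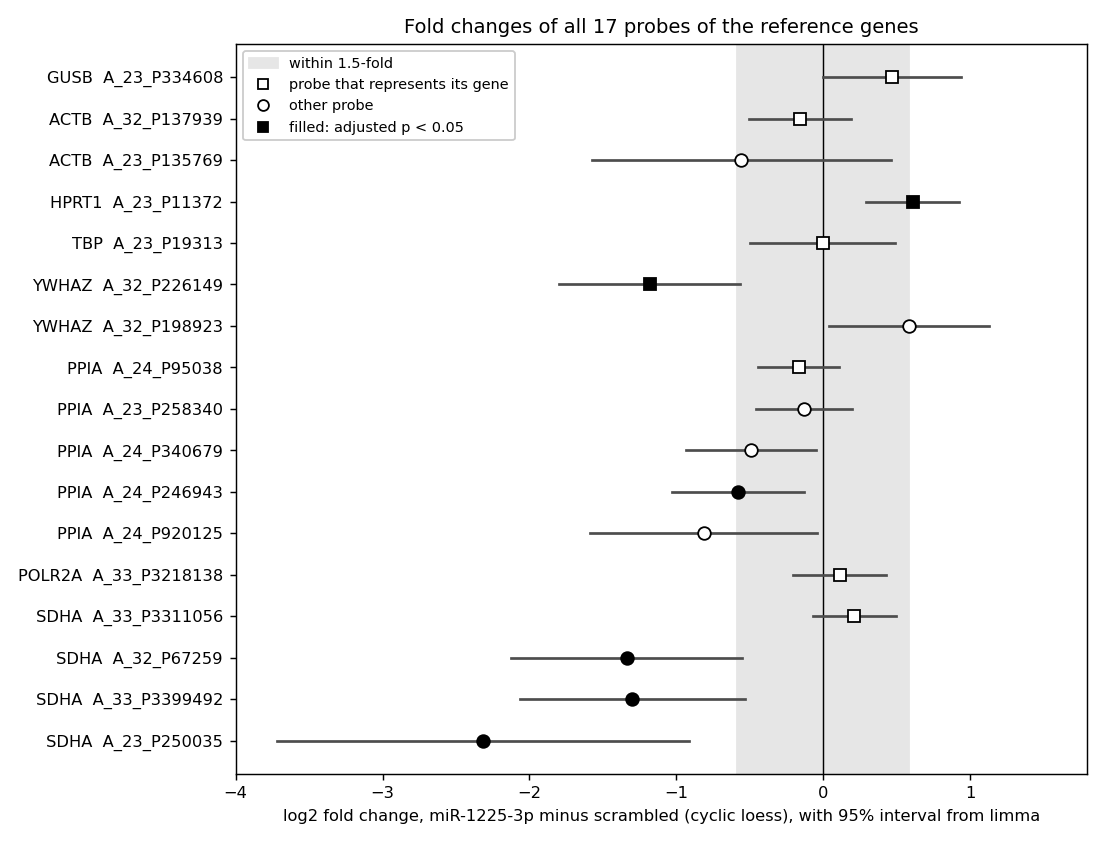
Log2 fold change (miR-1225-3p minus scrambled, horizontal axis) of all 17 probes after cyclic loess, with 95% intervals from limma. Squares mark the probe that represents its gene, filled symbols have an adjusted p under 0.05, and the grey band is within 1.5-fold. The SDHA probes run from -2.32 to 0.21 and the YWHAZ probes lie on both sides of 0.

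Ratios between reference genes within an array need no scaling of the arrays, and they were compared for all 28 pairs before normalization. In 5 pairs the groups did not overlap (exact permutation p = 0.00794, adjusted p = 0.0444 over the 28 pairs, two-sided), against 11.7% of all pairs of genes on the array. Of these, 4 set YWHAZ, by its brighter probe, against ACTB, HPRT1, PPIA and SDHA, with shifts between 1.21 and 1.76, and the fifth set HPRT1 against SDHA. The HPRT1 to SDHA ratio ran from -1.11 to -0.75 on the treated arrays and from -1.55 to -1.17 on the scrambled arrays, a shift of 0.34. Leaving out 1 array, which cannot make separate groups overlap, gave from 5 to 10 such pairs, with 9 without miR-1225-3p replicate 5 and 10 without scrambled replicate 5. With the probes of a gene averaged there was 1.

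The steadiest pair was ACTB and PPIA, with each gene read by its brightest probe. Their log2 ratio had an SD of 0.16 over the 10 arrays and differed by 0.03 between the groups (exact permutation p = 0.778). POLR2A and SDHA came next, with an SD of 0.18 and a difference of -0.12 (exact permutation p = 0.23). The median SD over the 28 pairs was 0.47, and the widest pair was GUSB and YWHAZ at 1.13. Averaged over its 7 pairs, the SD was 0.41 for PPIA, 0.42 for SDHA, 0.43 for POLR2A, 0.48 for ACTB, 0.51 for HPRT1, 0.56 for GUSB, 0.71 for TBP and 0.86 for YWHAZ. The first 3 values are close, and their order was not tested. The ranking also depended on the probe. By every other SDHA probe the average was above the 0.86 of YWHAZ, and by the second ACTB probe it was 0.83. By the second YWHAZ probe it was 0.53, and by the other PPIA probes it ran from 0.43 to 1.09. GUSB was steadiest against SDHA, with an SD of 0.23, and against HPRT1, with 0.25.

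**Figure D4:**
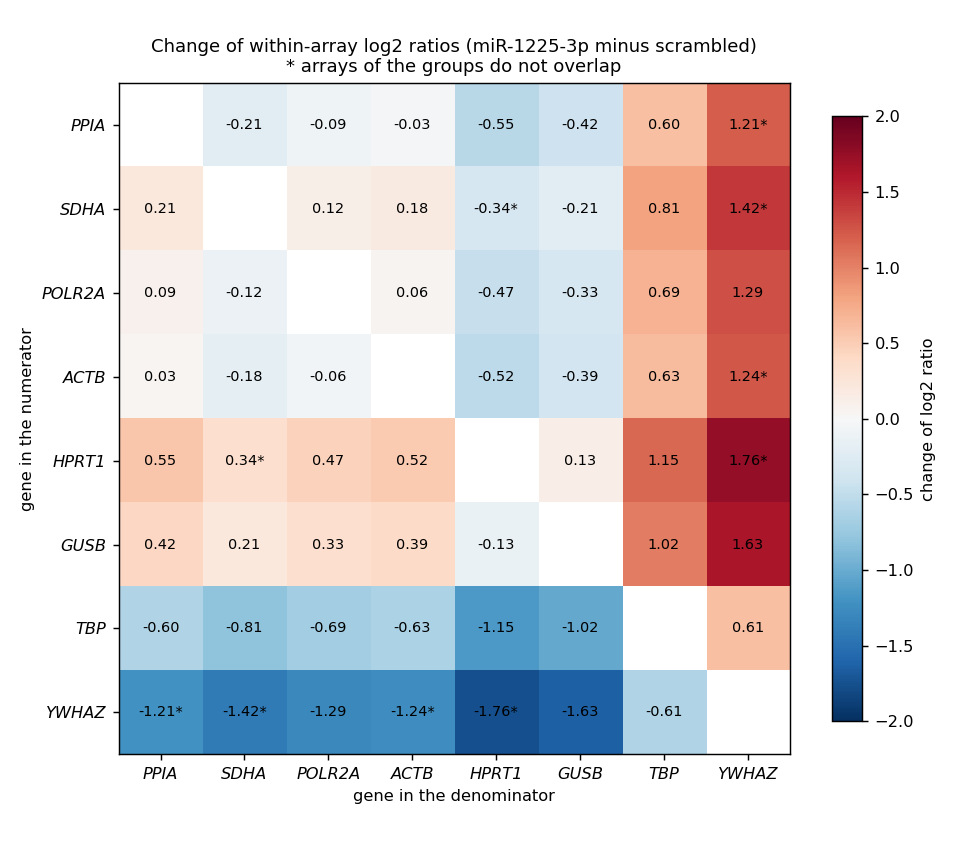
Change of the within-array log2 ratio of the gene in the row to the gene in the column, miR-1225-3p minus scrambled, before normalization, with red for higher and blue for lower. Stars mark the 5 pairs, each shown on both sides of the diagonal, in which the arrays of the groups do not overlap. The strongest colours are in the YWHAZ row and column.

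The choice of reference carried over to the 12 genes that the study assayed by qRT-PCR, read here from the arrays and not from the assays. Each was set against each of the 8 reference genes within the array. The log2 change was always lowest with HPRT1 and highest with YWHAZ, read by its brighter probe. The 2 were 1.76 apart, since the same pair of ratios shifts every gene. The YWHAZ end depends on the probe. Before normalization its brighter probe was at -1.07 and its second probe at 0.64, beside 0.69 for HPRT1. The 12 genes were not set against the second probe. With GUSB, 3 of the 12 were higher and 9 lower, and none had groups that did not overlap. Groups did not overlap for 7 of the 12 with PPIA, 6 with ACTB, 5 with TBP, 4 with HPRT1 and 3 with each of YWHAZ, POLR2A and SDHA. Over all other genes the share without overlap was 8.41% relative to GUSB, 10.0% to PPIA, 4.76% to ACTB, 5.70% to TBP, 8.01% to POLR2A and 14.3% to SDHA. It was highest relative to the 2 reference genes that were themselves past the threshold, at 25.4% for HPRT1 and 30.6% for YWHAZ.

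RAP2A, a small GTPase, had the largest fall by cyclic loess (-4.81, SE 1.046, adjusted p = 0.015 from limma), and relative to GUSB it was at -5.79 (SD 3.15 with miR-1225-3p and 0.63 with the scrambled control, n = 5 each). It was well above background on 6 of the 10 arrays. BCR, a GTPase regulator and the breakpoint partner of ABL1, had the largest rise (3.34, SE 0.730, adjusted p = 0.0151 from limma) and was at 2.65 relative to GUSB. Another 2 genes, singled out after their values were seen, changed sign with the reference. PLAGL2, a zinc finger transcription factor with 2 probes of which the brighter is used, ran from -1.002 with HPRT1 to 0.76 with YWHAZ and was at -0.87 with GUSB, and PTGER3, a prostaglandin E2 receptor with 4 probes, ran from -1.71 to 0.05 and was at -1.57 with GUSB. PTGER3 was above 0 only with the brighter YWHAZ probe, while PLAGL2 was also above 0 with TBP (0.15). The other 10 had the same sign with all 8 references, MT1X being nearest to 0, at -0.03 with the brighter YWHAZ probe.

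**Figure D5:**
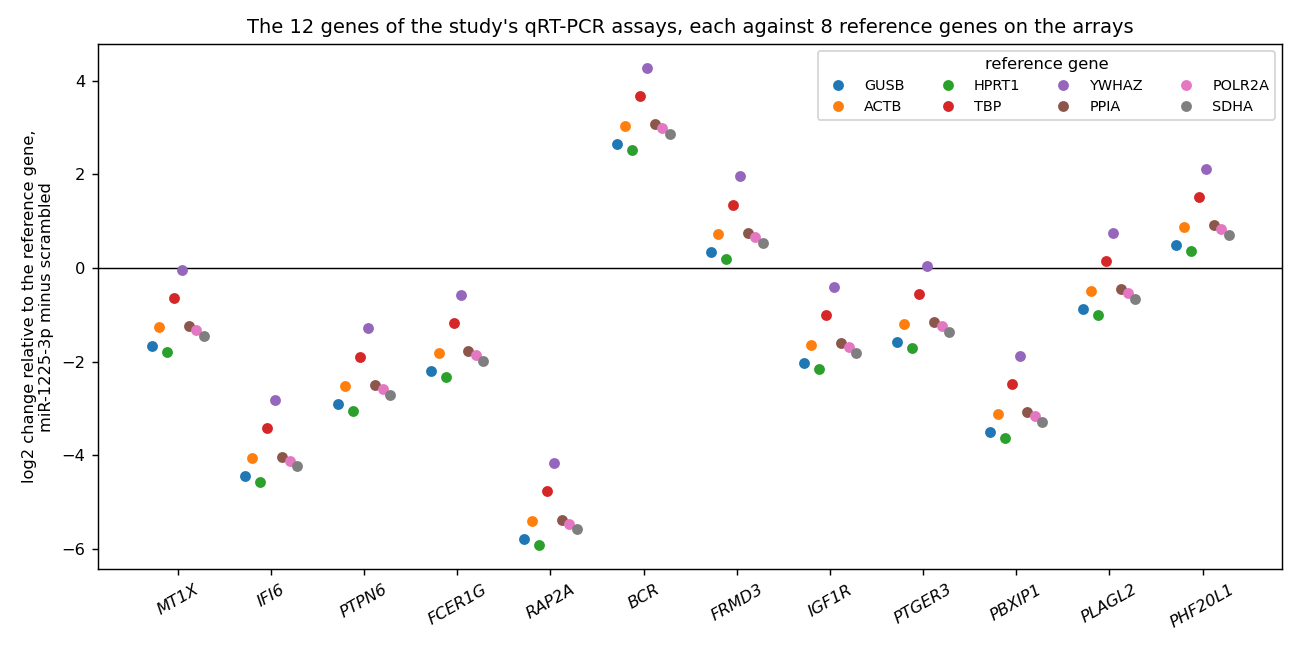
Log2 change of the 12 qRT-PCR genes on the arrays (miR-1225-3p minus scrambled, vertical axis), relative to each of the 8 reference genes, which are shown by colour. Each point is a difference of group means of 5 arrays. HPRT1 gives the lowest and YWHAZ, by its brighter probe, the highest point for every gene, and PLAGL2 and PTGER3 cross 0.

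Other genes in common use as references were read in the same way. Of 23 measured, 2 were past the threshold and higher and 6 lower, a share near the 35.0% of all genes, and their median was -0.09 beside -0.06 over all genes. For 8 of the 23 the interval stayed within 1.5-fold, against 17.2% of all genes. The highest were SNRPD3, of the spliceosome (1.23, adjusted p = 0.0153 from limma), VPS29, of the retromer (0.72, adjusted p = 0.0396 from limma) and PSMB4, of the proteasome (0.40, adjusted p = 0.073 from limma). The lowest were GAPDH, the glycolytic dehydrogenase (-1.47, adjusted p = 0.0208 from limma), TUBB, a beta-tubulin (-1.26, adjusted p = 0.0186 from limma) and ALAS1, of heme synthesis (-0.79, adjusted p = 0.0166 from limma). CHMP2A, of the ESCRT-III complex, had the narrowest interval around 0, with a difference of 0.11 and a 95% interval from -0.15 to 0.37. GAPDH ran from 14.57 to 16.96 on the treated arrays and from 16.98 to 17.50 on the scrambled ones, so the groups did not overlap.

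Relatives of the 8 genes were counted at the same threshold, which 17.0% of all genes passed as higher and 18.1% as lower, and with so few members no list is set apart from that background. Of the other 11 RNA polymerase II subunits 3 rose and 2 fell, from POLR2K at 0.73 to POLR2B at -0.78, around POLR2A at 0.11. Of 13 TFIID subunits 4 rose and 1 fell, the highest being TAF1 at 0.81 and the lowest TAF2 at -1.28 (adjusted p = 0.326 from limma). Of 7 further subunits and assembly factors of succinate dehydrogenase 1 rose, SDHAF3 at 0.73, and none fell, with SDHAF2 lowest at -0.36 (adjusted p = 0.0585 from limma). Of 4 other purine salvage enzymes 1 rose, ADK at 0.75, and none fell, with DCK lowest at -0.60 (adjusted p = 0.381 from limma).

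Against the same background of 35.0% past the threshold, of 11 cyclophilins other than PPIA 4 rose and 1 fell, from PPIH at 1.24 to PPIB at -1.78. Of 5 further 14-3-3 proteins that were tested none rose and 2 fell, YWHAH at -2.52 being lowest and YWHAG at 0.18 highest (adjusted p = 0.441 from limma). Of the 5 other actins 2 were above the filter, and ACTG1, the cytoplasmic gamma-actin, fell by 1.45 (adjusted p = 0.0354 from limma) while ACTA2 was at -0.43 (adjusted p = 0.0815 from limma). Of the 12 qRT-PCR genes 3 rose and 8 fell, but the study picked genes for that assay from these same cells, so the count is not independent evidence.

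Across the 10 normalized arrays the gene most like GUSB was RARS2, a mitochondrial arginyl-tRNA synthetase (Pearson r = 0.995), followed by PSMB4 (0.986) and GCN1, of the integrated stress response (0.985). RARS2 ran from 10.52 to 11.28 on the treated arrays and from 10.02 to 10.85 on the scrambled arrays, and like GUSB its difference of 0.44 was not past the threshold (adjusted p = 0.104 from limma). Among the reference genes the r with GUSB was 0.96 for SDHA, 0.79 for HPRT1, 0.47 for POLR2A, -0.47 for TBP, -0.88 for ACTB, -0.89 for PPIA and -0.90 for YWHAZ. These values describe 10 arrays that share 1 normalization and carry no test.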

How the data were processed

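Cy3-labelled total RNA of 10 samples, 5 per group, was hybridised to 1-colour Agilent human arrays. The authors deposited Feature Extraction output, whose processed signal is a background-subtracted intensity without scaling between arrays. Its version, 10.7.3.1 by the submitters' processing notes, differs from that in the study's methods. The authors also deposited log2 values, normalized by cyclic loess, for 29271 probes. Their array medians ran from 4.77 to 5.15 and their correlations with the values made here from 0.98 to 0.996, and their centring stays unknown. The files name the probes by accession only. RefSeq's gene table (GRCh38.p14) gave symbols for 24910 of 42405 probes and for 11995 of 17379 genes tested, and no gene coordinates are used.

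Here 4259 control spots were left out, cyclic loess (3 iterations, limma 3.58.1, R 4.3.3) was run on the log2 processed signals, outlier-flagged spots were dropped and spots of a probe averaged. Probes had to be well above background on 3 or more arrays of 1 group (20648 kept), and a gene is represented by its brightest kept probe. Values before normalization omit the loess step. Groups were compared with limma (lmFit, eBayes) with Benjamini-Hochberg adjustment at 0.05, and single values with two-sided exact permutation tests. Probe tests come from a fit over probes, gene tests from one over genes. The precision is limited by the 5 arrays per group. The methods' t-test was an alternative. The procedure was tested on simulated data.

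All 8 reference genes are named. Of each further list, those with the highest and lowest difference are named (3 of each, and the interval nearest 0, for other reference genes), and for GUSB the 3 genes most correlated with it. The genes and lists were chosen with earlier results of these data known.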

Additional observations from a re-analysis of the deposited data

Results flagged for a closer look

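Single arrays stood far from the rest of their group in 4 of the 34 probe and group combinations examined, where chance gives about 5%, or 1.7. ACTB probe A_32_P137939 read 16.61 on miR-1225-3p replicate 4, below the other treated arrays at 16.86 to 16.95. HPRT1 read 11.66 on miR-1225-3p replicate 5, against 12.03 to 12.12 on the others. SDHA probe A_32_P67259 read 10.83 on the same array, against 8.89 to 9.42. PPIA probe A_24_P340679 read 14.59 on scrambled replicate 5, against 14.81 to 14.89 on the others.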

How the results depend on the processing

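The limits of these results lie in the scaling, the probe chosen and single arrays. The 2 genes past the threshold became 0 without normalization or against the spike-in probes, 5 with the 75th percentile, 1 within slide 1 and 0 within slide 2 (at an unadjusted p under 0.05 in limma, 1, 2 and 1 of the 8 for the 3 settings at 0); leaving out 1 array gave 2 to 3. The 5 genes within 1.5-fold became 0 without normalization, against the spike-in probes and within either slide. They became 3 by quantile normalization, 1 with the 75th percentile and 2 with the probes averaged. Leaving out 1 array gave 3 to 5. The share of all genes within 1.5-fold, 17.2% in the main fit, moved as well. It was 0% without normalization, 0.79% against the spike-in probes, 7.81% within slide 1 and 0.83% within slide 2. By quantile normalization it was 15.7%, with the 75th percentile 9.10% and with the probes averaged 16.8%. The median of the 8 genes was 0.20 without normalization, 0.62 with the 75th percentile, 0.25 against the spike-in probes and -0.15 with the probes averaged, and from -0.02 to 0.11 leaving out 1 array. Pairs of genes past the threshold numbered 10 on normalized values, 9 with normexp on the median signal, 9 with flagged spots kept and 0 with the probes averaged (13 at an unadjusted exact p under 0.05). Leaving out 1 array gave 0 to 10 pairs past the threshold. The exact p moves in coarse steps, with all 10 arrays as with 4 against 5, so a 0 is not read as a lost difference. In the same settings 9 to 14 pairs had an unadjusted exact p under 0.05 and 5 to 10 had groups that did not overlap. The count past the threshold was 0 without miR-1225-3p replicate 1 or any of scrambled replicates 1 to 4, 9 without miR-1225-3p replicate 5 and 10 without scrambled replicate 5.

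Of single genes, ACTB reversed to 0.17 without normalization, 0.13 by quantile normalization, 0.59 with the 75th percentile and 0.22 against the spike-in probes, and PPIA to 0.14, 0.0856, 0.56 and 0.19. TBP, at about 0, reversed to 0.15 by quantile normalization, 0.048 with normexp, 0.010 with the slide as a block and 0.45 within slide 1, and ran from -0.154 to 0.0906 leaving out 1 array; it was not kept within slide 2. POLR2A was -0.0083 within slide 2 and SDHA -1.18 with the probes averaged. GUSB passed with the 75th percentile (0.98), with array weights (0.40) and without miR-1225-3p replicate 5. HPRT1 and YWHAZ passed in 10 of 10 fits that left out 1 array. Over the 222 alternative values of single genes 189 kept their sign and side of the threshold. The cause of the other changes was not tested.

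Over all genes tested, 6091 passed, 1266 without normalization, 267 against the spike-in probes, 3411 with no filter on dim probes, 11525 with array weights, 4328 within slide 1, 0 within slide 2 (1161 at an unadjusted p under 0.05 in limma) and 2151 to 9564 leaving out 1 array. Replicate numbers in the titles gave no sign of pairing the samples, as the correlations of deviations between same-numbered arrays ran from -0.40 to 0.07. Some same-numbered arrays were on different slides, so a pairing is not excluded. With the replicate number as a block, 0 of the 8 genes and 0 of all genes passed, with 2 of the 8 and 7474 of all genes at an unadjusted p under 0.05 in limma.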
